A study of Homo sapiens with 4 samples.

Results

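The Krüppel-like factors (KLF) listed here are 10 transcription factor genes, KLF2, KLF3, KLF4, KLF5, KLF6, KLF7, KLF9, KLF10, KLF11 and KLF13, and 9 of them were measured among the 17687 genes named on the arrays. They were taken by gene name, each from 1 probe set that names only that gene, and KLF13 was not analysed here because no probe set in the annotation used names it. RNA came from KGN cells, a human granulosa cell line derived from a granulosa cell tumour, on 4 Clariom S arrays. The groups were siYT+8Br-cAMP, siYT, siNC+8Br-cAMP and siNC, with 1 array each. The siYT groups had received siRNAs against YAP and TAZ at 5 nM each, and the siNC groups control siRNA at 10 nM. At 48 h after transfection the medium was exchanged, and the groups named with 8Br-cAMP, a cell-permeable cyclic AMP analogue, had 0.5 mM of it for 24 h, while the others had none.

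KLF proteins bind GC-rich and CACCC-type DNA elements through C2H2 zinc fingers at their C-terminal end, and their N-terminal parts recruit either coactivators or corepressors. Several KLF genes respond quickly to growth factors, hormones or stress, and single members are known to promote or to restrain proliferation. In porcine granulosa cells, KLF4, KLF9 and KLF13 have been studied beside steroidogenic genes, and Klf4 responds to luteinizing hormone in rat granulosa cells. YAP and TAZ are coactivators that Hippo signalling restrains, and cyclic AMP carries the gonadotropin signal in granulosa cells.

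Values are the deposited log2 signals. With 1 array per group no difference between groups has a replicate check, so each is given by its size, with no p-value and no SD. A gene was called higher or lower where the gap between its log2 values was 1 or more (2-fold) and the higher of them reached the level filter of 6.22, the median over all genes and arrays. Of the 9 measured members, 8 reached that filter on at least 1 array and KLF4 on none. A stricter mark for detection is 6.95, the 95th percentile of the 612 negative control probe sets. Levels are compared within a gene only, since probe sets differ in brightness, and with 1 array per group no neighbours in the order of the 4 levels can be judged against a spread. A lower share of cells with a transcript and less of it per cell cannot be told apart in such samples.

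The targets of the siRNA were lower in the siYT groups. YAP1 was at 6.29 in siYT+8Br-cAMP and 6.80 in siYT, against 9.46 in siNC+8Br-cAMP and 9.48 in siNC. WWTR1, which encodes TAZ, was at 5.35 in siYT+8Br-cAMP and 5.45 in siYT, against 9.13 in siNC+8Br-cAMP and 7.58 in siNC. Of 15 granulosa markers, 14 were measured and 9 reached the level filter on some array. FOXL2, AMHR2 and INHA were among the 5 below it on all 4 arrays. With the siRNA 3 of the 14 were called higher and 2 lower in each medium. All-gene shares were 5.52% and 5.94% with 8Br-cAMP and 7.60% and 7.32% without. CYP19A1 (3.29 with and 9.23 without 8Br-cAMP) and GATA4 (0.86 and 1.02) were higher. KRT18 (-4.71 and -4.02) and FST (-1.62 and -3.28) were lower. The CYP19A1 value of 5.04 in siNC lay under the level filter. Of 9 theca and stroma markers, 8 were measured and 4 reached the filter, and their summed signal lay at 12.38 and 13.72 in siYT+8Br-cAMP and siYT, against 12.96 and 13.32 in siNC+8Br-cAMP and siNC (log2). Most of that sum was COL1A1, which differed with the siRNA by -0.99 with and 0.11 without 8Br-cAMP. LUM was at 9.73 and 10.23 in siYT+8Br-cAMP and siYT, against 5.28 and 4.89 in siNC+8Br-cAMP and siNC. DCN was higher with the siRNA as well (3.86 and 3.38), and PDGFRA differed by 0.06 and 2.53. The siNC values of LUM and DCN lay under the level filter in both media. The part of these markers in the KLF differences was not tested. Among 5 immune and 5 endothelial markers, only CD68 and KDR reached the filter, and CD68 was at 13.15 and 12.69 in the siYT arrays, against 10.33 and 10.77 in the siNC arrays. The median difference of the 2197 positive control probe sets was -0.35 with and -0.36 without 8Br-cAMP for the siRNA, and 0.04 after siYT and 0.01 after siNC for 8Br-cAMP. The part of that shift in the siRNA differences was not tested.

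The promoters of KLF members differ in composition, and those of KLF6, KLF9 and KLF2, 3 of the 4 members with the widest range over the arrays, are shown whole, with a shorter stretch for KLF5, because cyclic AMP and YAP/TAZ act on genes through CREB and TEAD proteins. The bases are RefSeq promoter windows on GRCh38.p14 for the 250 bases before an annotated start, and 8 of the 10 members had an entry (KLF3 and KLF10 had none). Capitals mark matches, on either strand, to the GC box GGGCGG, the cyclic AMP response element (CRE) TGACGTCA, the CRE core TGACG, which lies within the CRE, and the TEAD core GGAATG. The windows are KLF6 at chr10:3785210-3785459 on the minus strand, KLF9 at chr9:70414658-70414907 on the minus strand and KLF2 at chr19:16324576-16324825 on the plus strand.
KLF6: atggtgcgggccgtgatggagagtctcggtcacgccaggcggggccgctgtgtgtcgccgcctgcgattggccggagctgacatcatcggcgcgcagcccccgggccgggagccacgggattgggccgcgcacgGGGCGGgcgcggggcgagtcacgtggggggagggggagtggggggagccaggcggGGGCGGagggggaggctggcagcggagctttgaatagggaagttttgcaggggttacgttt
KLF9: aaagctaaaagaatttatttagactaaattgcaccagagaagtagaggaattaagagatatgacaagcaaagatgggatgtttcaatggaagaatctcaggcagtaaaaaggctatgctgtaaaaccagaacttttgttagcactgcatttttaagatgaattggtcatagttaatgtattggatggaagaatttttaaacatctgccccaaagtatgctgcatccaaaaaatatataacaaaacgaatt
KLF2: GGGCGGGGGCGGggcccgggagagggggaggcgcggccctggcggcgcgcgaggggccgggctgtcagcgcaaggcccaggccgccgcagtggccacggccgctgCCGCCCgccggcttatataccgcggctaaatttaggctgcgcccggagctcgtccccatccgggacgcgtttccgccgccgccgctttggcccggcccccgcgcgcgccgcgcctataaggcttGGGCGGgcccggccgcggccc

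The KLF6 window was 72.4% G or C and held 2 GC boxes, the KLF9 window was 32.4% G or C and held none, and the KLF2 window was 80.0% G or C and held 4. Over the 35116 promoter windows of the table the median was 58.0% G or C, with 38.0% at percentile 10 and 75.2% at percentile 90, so KLF9 lay below that span and KLF2 above it. A GC box was present in 42.6% of all windows, the CRE in 1.65%, the CRE core in 21.2% and the TEAD core in 11.9%. The letters of the CRE, the CRE core and the TEAD core were in none of these 3 windows, which says nothing about binding elsewhere.

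The CRE occurred in 1 KLF window, the more downstream of 2 for KLF11, with its first base at position -176 from the start. The CRE core alone occurred at position -14 from the more downstream of 2 KLF5 starts, at -210 and -247 from the KLF4 start and at -56 from the KLF13 start. Stretches of 30 bases are shown here. That of KLF11, around the CRE, is at chr2:10044034-10044063 on the plus strand. That of KLF5, around the CRE core, is at chr13:73058975-73059004 on the plus strand. That of KLF4, around the nearer CRE core, is at chr9:107489962-107489991 on the minus strand. Only the named motif is in capitals in each.
KLF11: atttccagccaTGACGTCAccccggtcctg
KLF5: gtgaaatagaggcgggCGTCAagtgtcagt
KLF4: ctgcctggctggCGTCAcggcccggcccag

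The TEAD core occurred in 1 of the KLF windows, 1 of the 4 for KLF7, at position -121 from its start. KLF5, with the largest siRNA difference, had no TEAD core in either window. These matches describe letters and are not binding sites.

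**Figure D1:**
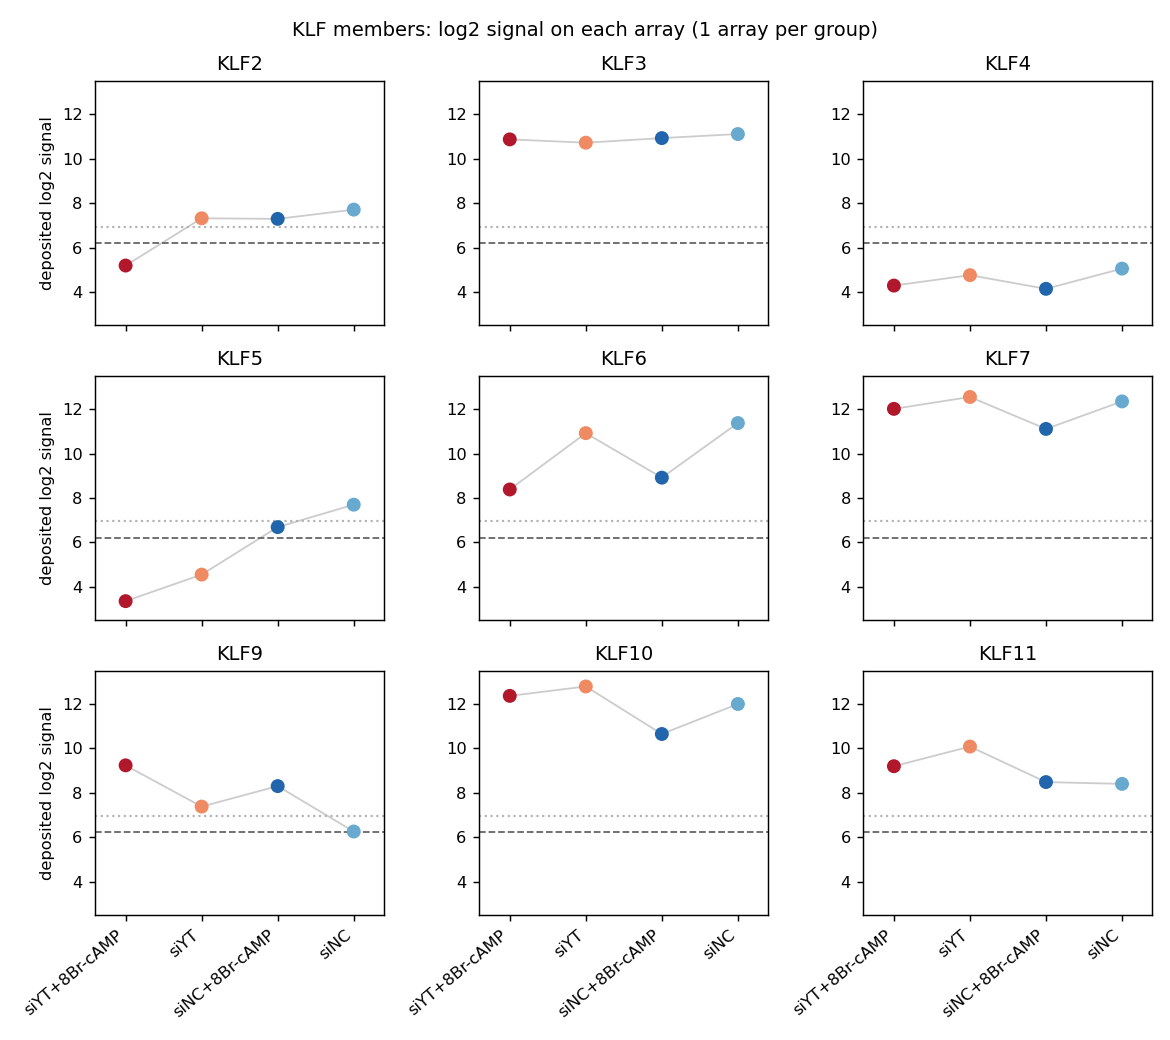
Deposited log2 signal of the 9 measured KLF members on each array (vertical axes, shared scale), with 1 point per group in the order siYT+8Br-cAMP, siYT, siNC+8Br-cAMP, siNC. The dashed line is the level filter at 6.22 and the dotted line the negative control mark at 6.95; KLF5 is below both on the siYT arrays, KLF2 on siYT+8Br-cAMP, and KLF4 on all arrays.

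Which KLF genes differed with YAP/TAZ siRNA was examined first. KLF5 was lower in both media, and KLF2 was lower by over 2-fold with 8Br-cAMP only. KLF9, KLF10 and KLF11 were higher in both media by between 0.71 and 1.72, each past 2-fold in 1 medium. With 8Br-cAMP, 1 of 9 members was called higher (KLF10) and 2 lower (KLF2 and KLF5), beside 5.52% of all genes called higher and 5.94% called lower. Without 8Br-cAMP, 2 of 9 were called higher (KLF9 and KLF11) and 1 lower (KLF5), beside 7.60% and 7.32% of all genes. The member medians of 0.15 with and -0.29 without 8Br-cAMP stood beside 0.06 and 0.02 for all genes, but both are the values of KLF4, which was under the level filter, and over the other 8 members they were 0.33 and -0.09.

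KLF5, which promotes proliferation in epithelial and smooth muscle cells, had the largest siRNA difference of the family in each medium. Its level was 3.36 in siYT+8Br-cAMP and 4.55 in siYT, against 6.69 in siNC+8Br-cAMP and 7.70 in siNC. Both siYT arrays lay below both siNC arrays. The differences were -3.33 with and -3.15 without 8Br-cAMP, which is 10.1-fold and 8.85-fold lower. Of the genes past the level filter, 0.813% differed at least as far downward with and 1.15% without 8Br-cAMP. KLF5 was the 1 member called in the same direction in both media, and 3.63% of all genes were called lower and 3.25% higher in both. The siYT values lay under the level filter, and 3.36 was even below 3.66, the median of the negative controls in siYT+8Br-cAMP, which makes the fold depend on the background. The siNC+8Br-cAMP value also lay under the mark of 6.95, and with that mark as the filter KLF5 is no longer called with 8Br-cAMP.

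KLF10 and KLF11 are related repressors, first described as early genes of TGF-beta signalling, that recruit the SIN3 corepressor. KLF10 was at 12.36 in siYT+8Br-cAMP and 12.78 in siYT, against 10.64 in siNC+8Br-cAMP and 11.99 in siNC. It was 3.28-fold higher with 8Br-cAMP (1.72) and 1.73-fold higher without (0.79), and all 4 values lay far above the negative control mark. KLF11 was at 9.19 in siYT+8Br-cAMP and 10.08 in siYT, against 8.48 in siNC+8Br-cAMP and 8.40 in siNC. It was 1.64-fold higher with 8Br-cAMP (0.71) and 3.20-fold higher without (1.68). In both genes the siYT arrays lay above the siNC arrays, while KLF10 was past 2-fold only with and KLF11 only without 8Br-cAMP.

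KLF9, a glucocorticoid- and thyroid hormone-responsive factor, was higher with the siRNA as well. Its level was 9.23 in siYT+8Br-cAMP and 7.38 in siYT, against 8.30 in siNC+8Br-cAMP and 6.26 in siNC. The siRNA differences were 0.93 with and 1.12 without 8Br-cAMP, on either side of the 2-fold threshold. The siNC value lay just above the level filter and under the mark of 6.95.

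The remaining members differed less with the siRNA in at least 1 medium. KLF2, a factor of endothelial and lymphocyte quiescence, was at 5.20 in siYT+8Br-cAMP and 7.32 in siYT, against 7.30 in siNC+8Br-cAMP and 7.71 in siNC. It was 4.29-fold lower with 8Br-cAMP (-2.10) and 1.31-fold lower without (-0.39), so that siYT+8Br-cAMP was the 1 array that stood apart. The 5.20 on that array lay under the level filter. KLF6 differed by -0.53 with and -0.45 without 8Br-cAMP. KLF7, known from neuronal development, differed by 0.90 and 0.20, and KLF3, a repressor that recruits CtBP proteins, by -0.06 and -0.39. KLF4, one of the pluripotency reprogramming factors, was at 4.30 in siYT+8Br-cAMP and 4.76 in siYT, against 4.15 in siNC+8Br-cAMP and 5.06 in siNC. All 4 of its values lay under the level filter, so no difference of KLF4 was called.

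**Figure D2:**
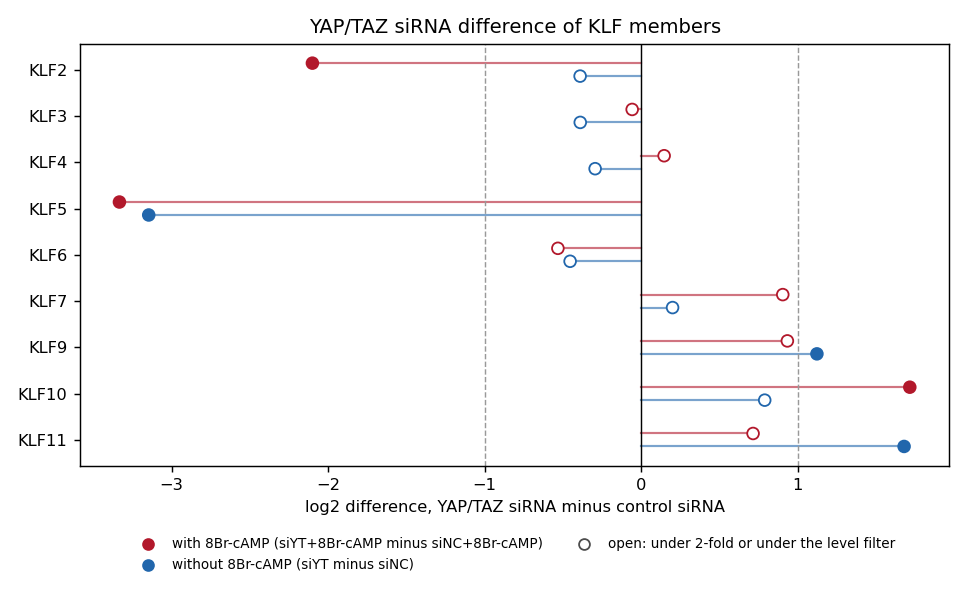
Log2 difference between YAP/TAZ siRNA and control siRNA (horizontal axis) for each KLF member, with 8Br-cAMP (upper point, siYT+8Br-cAMP minus siNC+8Br-cAMP) and without (lower point, siYT minus siNC), 1 array per group; filled points are at least 2-fold and past the level filter. KLF5 lies at -3.33 and -3.15, KLF2 at -2.10 and -0.39, and KLF9, KLF10 and KLF11 to the right of 0 in both media.

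Which KLF genes differed with 8Br-cAMP was examined after each siRNA. KLF6 was lower, by -2.54 and -2.46, and KLF9 higher, by 1.86 and 2.04, after siYT and after siNC, and these were the family's members called the same way after both. Over all genes, 1.22% were called lower and 1.58% higher after both siRNAs. After siYT, 1 of 9 members was called higher (KLF9) and 2 lower (KLF2 and KLF6), beside 4.06% and 4.15% of all genes. After siNC, 1 of 9 was called higher (KLF9) and 4 lower (KLF5, KLF6, KLF7 and KLF10), beside 4.32% and 3.74% of all genes. The member medians were -0.53 after siYT and -0.91 after siNC, beside -0.02 and -0.03 for all genes; the value after siNC is that of KLF4, and over the other 8 members the medians were -0.71 and -0.71. At a threshold of 1.5 on the log2 scale, KLF6 was the 1 member left lower after siNC.

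KLF6, a factor induced early after tissue injury, was at 8.38 in siYT+8Br-cAMP and 8.92 in siNC+8Br-cAMP, against 10.92 in siYT and 11.37 in siNC. Both arrays with 8Br-cAMP lay below both without it, and all 4 values were above the negative control mark. The differences were -2.54 after siYT and -2.46 after siNC, which is 5.80-fold and 5.49-fold lower. Only 36 of the 9263 genes past the level filter after siYT (0.389%) and 30 of 9286 after siNC (0.323%) differed at least as far downward, KLF6 included.

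KLF9 was at 9.23 in siYT+8Br-cAMP and 8.30 in siNC+8Br-cAMP, against 7.38 in siYT and 6.26 in siNC. The arrays with 8Br-cAMP lay above those without it, by 1.86 (3.62-fold) after siYT and by 2.04 (4.12-fold) after siNC. A difference at least as far upward was found for 182 of the 9263 genes past the level filter after siYT and 139 of 9286 after siNC, KLF9 included.

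KLF10 and KLF7 were lower with 8Br-cAMP mainly after control siRNA. KLF10 differed by -0.42 after siYT and by -1.35 after siNC. KLF7 was at 12.01 in siYT+8Br-cAMP and 12.55 in siYT, and at 11.11 in siNC+8Br-cAMP and 12.35 in siNC, with differences of -0.53 and -1.24. In both genes siNC+8Br-cAMP was the lowest of the 4 arrays and siYT the highest. KLF5 differed by -1.20 after siYT, where both values lay under the level filter, and by -1.01 after siNC, just past the threshold.

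KLF2 differed by -2.13 after siYT (4.37-fold lower), where the lower value lay under the level filter, and by -0.42 after siNC. KLF11, the member with a CRE in a promoter window, differed by -0.88 after siYT and by 0.08 after siNC. KLF3 was at 10.87 in siYT+8Br-cAMP and 10.72 in siYT, and at 10.93 in siNC+8Br-cAMP and 11.11 in siNC. It differed by 0.15 after siYT and -0.18 after siNC, and its range of 0.39 over the 4 arrays was the narrowest of the measured members. KLF4 differed by -0.47 and -0.91, under the level filter throughout.

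**Figure D3:**
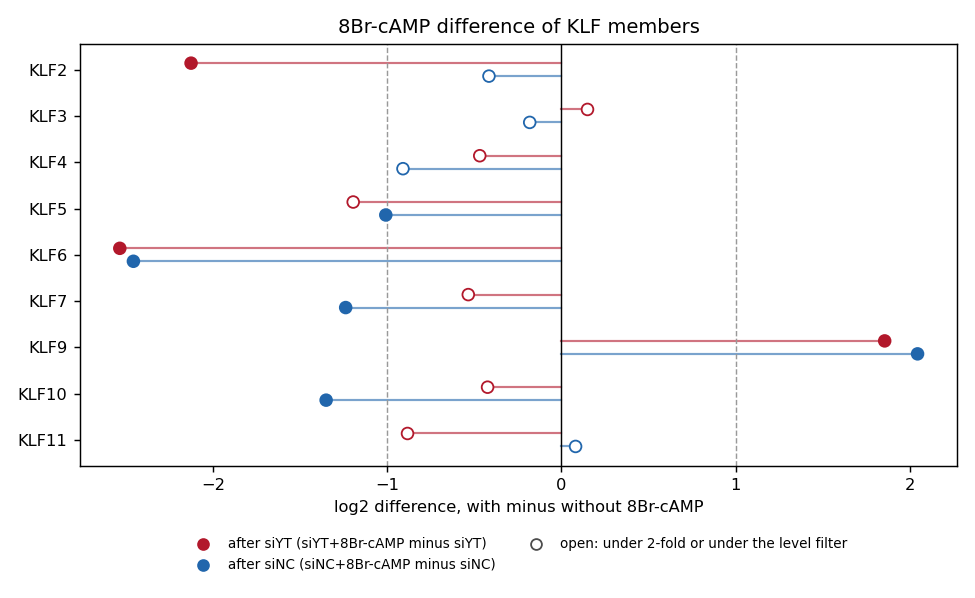
Log2 difference between cells with and without 8Br-cAMP (horizontal axis) for each KLF member, after siYT (upper point) and after siNC (lower point), 1 array per group; filled points are at least 2-fold and past the level filter. KLF6 lies at -2.54 and -2.46 and KLF9 at 1.86 and 2.04, while KLF2 is past -2 after siYT only.

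The arrays with both treatments were next set against those with neither. KLF9 was called higher in siYT+8Br-cAMP than in siNC, by 2.98 (7.87-fold), and 9.84% of all genes were called higher. KLF2, KLF5 and KLF6 were called lower, by -2.52, -4.34 and -2.99, beside 9.12% of all genes. These are 5.72-fold, 20.3-fold and 7.94-fold, and the lowest values of KLF2 and KLF5 lay under the level filter. KLF10 differed by 0.36, with a siRNA difference and an 8Br-cAMP difference of opposite sign. KLF7 differed by -0.33, KLF11 by 0.80, KLF3 by -0.24 and KLF4 by -0.76.

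Whether the treatments added up was examined next. For each gene the siNC level was summed with its differences to siYT and to siNC+8Br-cAMP, and that sum was subtracted from the level observed in siYT+8Br-cAMP, a difference of differences. KLF2 was the 1 member called, with 5.20 observed in siYT+8Br-cAMP against a sum of 6.91, a difference of -1.71. Of the genes past the level filter, 2.04% had a value at least as low. Over all genes 3.57% were called above the sum and 4.82% below it, so that 42.5% of the calls lay above, against 53.9% after each array was centred on its median. KLF6 and KLF9 lay close to their sums, at -0.08 and -0.19, though the sign of KLF6 changed under other scalings. KLF5 differed by -0.19 from its sum, but its levels in siYT+8Br-cAMP and siYT were under the level filter and the difference was 0.43 with 32 added to the linear values, so its additivity could not be judged. KLF11 lay 0.96 below its sum and KLF10 0.93 above it, both just short of the threshold, and KLF10 reached 1.02 after centring. KLF7 lay 0.70 above, KLF4 0.44 above and KLF3 0.33 above. With 1 array per group this value also holds the error of all 4 arrays.

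**Figure D4:**
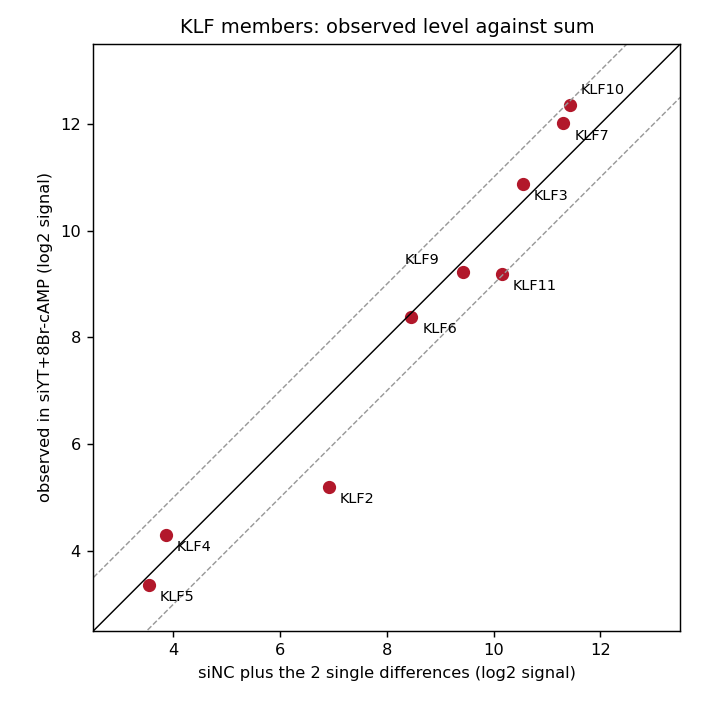
Observed log2 signal in siYT+8Br-cAMP (vertical axis) against the siNC level plus the 2 single differences (horizontal axis) for each KLF member, 1 array per group. The solid line marks equality and the dashed lines a difference of 1; KLF2 is the 1 member outside them, at 5.20 against 6.91.

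The members with the widest range over the 4 arrays were KLF5 (4.34), KLF6 (2.99), KLF9 (2.98) and KLF2 (2.52). For each, the 3 genes with the smallest Euclidean distance between centred profiles over the 4 arrays were taken. KLF5 lay nearest to HMGA1 (distance 0.15), NUF2 (0.15) and H2AX (0.20). HMGA1 was at 10.33 in siYT+8Br-cAMP and 11.70 in siYT, against 13.65 in siNC+8Br-cAMP and 14.74 in siNC, with siRNA differences of -3.32 and -3.04 at a level well above the level filter. KLF9 lay nearest to PMEPA1 (0.09), ZNF641 (0.15) and CDON (0.26), and KLF2 to NFKB2 (0.16), MARCKS (0.24) and PLSCR1 (0.25). NFKB2 was at 7.99 in siYT+8Br-cAMP and 9.99 in siYT, against 9.95 in siNC+8Br-cAMP and 10.56 in siNC. KLF6 had more distant neighbours, E2F7 (0.35), G0S2 (0.39) and CLDN1 (0.40). Among the 8 members past the level filter the closest pair was KLF7 and KLF10 (0.71), followed by KLF10 and KLF11 (1.06). Profiles over 4 arrays are short, and likeness in them is a description. Neighbours were chosen for likeness to a member, so their shared pattern follows from the choice and is no check on the member's values.

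**Figure D5:**
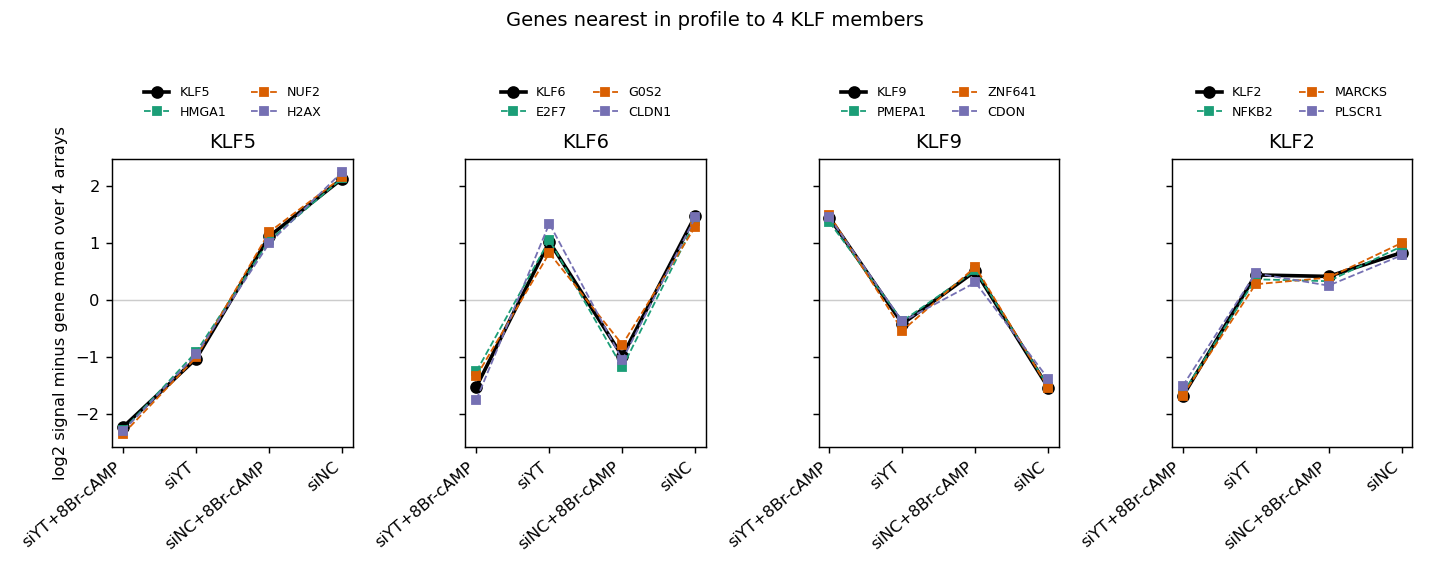
Log2 signal minus each gene's mean over the 4 arrays (vertical axis) by group for KLF5, KLF6, KLF9 and KLF2 (black) and the 3 genes nearest to each (dashed colours), 1 array per group. The neighbours of KLF9 lie within 0.26 of it in distance and those of KLF6 between 0.35 and 0.40.

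Of 7 further KLF genes measured, 4 lay under the level filter on all arrays, as did 6 of the 9 related SP factors, so that these could not be called. Of the other 3 KLF genes, KLF12, a repressor, was called higher after YAP/TAZ siRNA without 8Br-cAMP, at 9.43 in siYT against 7.75 in siNC, and differed by 0.83 with it. KLF14 was called lower in that comparison, at 4.94 in siYT against 6.57 in siNC, but stayed under the negative control mark on all 4 arrays. In that comparison 1 of the 7 was called higher and 1 lower, beside 7.60% and 7.32% of all genes. In the other single-factor comparisons 0 of the 7 were called, beside 3.74% to 5.94% of all genes in each direction. Of the 9 SP factors, 0 were called in any of these 4 comparisons, beside 24.7% of all genes called in at least 1. SP1, SP2 and SP3 were past the negative control mark on all arrays. Over all 9 SP factors the medians for the siRNA were 0.03 with and -0.12 without 8Br-cAMP. For 8Br-cAMP they were -0.39 after siYT and -0.36 after siNC. The values -0.12, -0.39 and -0.36 are those of SP4, SP9 and SP5, which lay under the level filter on all arrays. The siRNA differences without 8Br-cAMP were 0.22 for SP1, -0.32 for SP2 and 0.64 for SP3.

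Of 11 cofactor genes of KLF proteins, 10 were measured and 3 were called in at least 1 of the 4 single-factor comparisons, as were 24.7% of all genes. KAT2B, a histone acetyltransferase, was at 6.04 in siYT+8Br-cAMP and 8.54 in siYT, against 7.52 in siNC+8Br-cAMP and 7.82 in siNC. It was called lower with 8Br-cAMP after siYT (-2.49) and lower with the siRNA under 8Br-cAMP (-1.48), and as with KLF2 the array with both treatments was the lowest. The KAT2B value on that array lay under the level filter. SAP30, a part of the SIN3 complex, was called lower with 8Br-cAMP after siYT (-1.04), and CTBP2, a corepressor, after siNC (-1.04). SIN3A, the corepressor of KLF10 and KLF11, was at 9.79 in siYT+8Br-cAMP and 9.96 in siYT, against 9.71 in siNC+8Br-cAMP and 10.47 in siNC, and was not called.

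Among 11 regulators of KLF genes or proteins, all measured, 3 were called higher and 0 lower with the siRNA without 8Br-cAMP, beside 7.60% and 7.32% of all genes, with a list median of 0.69 beside 0.02. With 8Br-cAMP in the medium the siRNA had 1 higher and 1 lower, beside 5.52% and 5.94% of all genes, with a list median of 0.11 beside 0.06. MEF2D, of the MEF2 factors that drive KLF2 and KLF4 in endothelial cells, was at 9.24 in siYT+8Br-cAMP and 9.56 in siYT, against 9.01 in siNC+8Br-cAMP and 7.94 in siNC. FBXW7, a ubiquitin ligase subunit that marks KLF5 and KLF2 for degradation, was at 6.66 in siYT+8Br-cAMP and 7.57 in siYT, against 6.54 in siNC+8Br-cAMP and 6.10 in siNC. MEF2C was called higher (1.16) and BTRC lower (-1.05) with the siRNA under 8Br-cAMP. With 8Br-cAMP 0 of the 11 were called after siYT, beside 4.06% of all genes called higher and 4.15% lower. After siNC, MEF2D was called higher (1.07) and 0 were called lower, beside 4.32% and 3.74% of all genes.

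Of 20 genes reported as KLF targets, 18 were measured, and their calls went both ways. With the siRNA, 2 were called higher and 2 lower with 8Br-cAMP, beside 5.52% and 5.94% of all genes, and 4 higher and 4 lower without, beside 7.60% and 7.32%. With 8Br-cAMP, 3 were called higher and 4 lower after siYT, beside 4.06% and 4.15%, and 3 higher and 5 lower after siNC, beside 4.32% and 3.74%. The list medians for the siRNA were 0.02 and 0.11, and for 8Br-cAMP -0.59 and 0.07. MYC, a growth regulator, was at 7.93 in siYT+8Br-cAMP and 8.91 in siYT, against 10.16 in siNC+8Br-cAMP and 11.59 in siNC. SMAD7 went the other way with the siRNA, at 8.62 in siYT+8Br-cAMP and 9.75 in siYT, against 7.79 in siNC+8Br-cAMP and 7.58 in siNC. A link of either gene to a KLF member was not tested. S1PR1, a KLF2 target in lymphocytes, was at 6.90 in siYT+8Br-cAMP and 7.76 in siYT, against 7.25 in siNC+8Br-cAMP and 9.87 in siNC, so siNC stood apart for S1PR1 and siYT+8Br-cAMP for KLF2. NOS3 and THBD, the classical endothelial targets of KLF2, lay under the level filter on all 4 arrays. STAR and CYP11A1, the steroidogenic genes of the list, were higher with 8Br-cAMP after both siRNAs, by 5.51 and 4.16 for STAR and by 4.03 and 4.69 for CYP11A1, whose siNC value of 4.25 lay under the level filter, so that the size of 4.69 depends on the background.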

How the data were processed

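RNA from 4 groups of KGN cells was hybridised to 4 arrays, 1 per group. On the log2 scale, the deposited signals come from RMA, run by the authors with the Affymetrix Expression Console, per the labels; versions and the annotation build are not given in the sources used here. They ran from 1.39 to 19.36, above the 16 that a 16-bit scanner allows, so a rescaling is possible and folds need not be ratios of signals.

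Of 24351 probe sets, 17709 named 1 gene and 0 several in the annotation used, and probe sets of a gene were averaged to 17687 genes. That annotation gave no gene for the other probe sets, so whether any of them names several could not be seen. Differences between arrays were called by size as the report defines it, and the call function was tested on simulated data. No model was fitted, since no group had a replicate. Python 3.11.15 and R 4.3.3 with limma 3.58.1, used for cyclic loess and quantile normalization, were run.

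The members and lists were chosen with earlier results of these data known. Named genes were all members, YAP1 and WWTR1, the 3 nearest in profile to the 4 members of widest range, and from each list up to 4 called genes with the largest differences. SIN3A, NOS3, THBD, SMAD7, the SP genes and the markers named were chosen after their values were seen. Alternatives changed the threshold, the level filter, the scaling and the log scale.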

Additional observations from a re-analysis of the deposited data

Results flagged for a closer look

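In 3 cases a difference had opposite signs in the pair of conditions compared, and the difference between them was not tested. KLF11 differed with 8Br-cAMP by -0.88 after siYT and by 0.08 after siNC, a gap of -0.96. KLF3 differed with 8Br-cAMP by 0.15 after siYT and by -0.18 after siNC, a gap of 0.33. KLF4 differed with the siRNA by 0.15 with and by -0.29 without 8Br-cAMP, a gap of 0.44, at levels under the level filter. None of these differences reached 2-fold.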

How the results depend on the processing

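Of 432 values of single members under the alternatives, 410 kept their direction and their side of the call, 8 were no longer called, 11 became called, 3 uncalled values changed sign and 0 called values did so. Alternatives of the threshold and the level filter leave each value as it was. A sign could thus change only under those of the scaling and the log scale, and the tally is no measure of stability. Those 3 were the difference of differences of KLF5 (0.43 with 32 added) and of KLF6 (0.02 after centring, 0.04 after quantile normalization). The count of members called was within 1.5 times the main count under each alternative, with these exceptions. At a threshold of 1.5-fold, 6 members in place of 3 were called for the siRNA with 8Br-cAMP and 4 in place of 1 for the difference of differences. At 1.5 on the log2 scale, 2 in place of 5 were called for 8Br-cAMP after siNC. After each array was centred on its median, 2 in place of 1 were called for the difference of differences, KLF10 (1.02) beside KLF2. The call of KLF5 for 8Br-cAMP after siNC was lost with cyclic loess (-0.95) and with 32 added to the linear value (-0.83), and the call of KLF9 for the siRNA without 8Br-cAMP with 32 added (0.87); the cause was not tested. Over all genes, counts called ranged from 1426 to 3354 over the 6 comparisons, from 3418 to 5391 at 1.5-fold and from 467 to 1878 at 1.5 on the log2 scale, and without a level filter 2756 in place of 1484 were called for the difference of differences. No paired analysis was possible because each group held 1 array. In the annotation used no probe set named several genes, so that alternative was not run. Signal near the negative controls limits the values of KLF4, of KLF5 on all arrays but siNC, of KLF2 in siYT+8Br-cAMP and of KLF9 and CYP11A1 in siNC. The same holds for YAP1 and WWTR1 on the siYT arrays, S1PR1 in siYT+8Br-cAMP, CYP19A1 in siNC, and LUM and DCN on the siNC arrays. It also limits those of KAT2B in siYT+8Br-cAMP and of FBXW7 on all arrays but siYT.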
